A study of Mus musculus with 18 samples.

Results

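The regions described here are the stretches of the mouse genome that carried a peak of histone H3 acetylated at lysine 9 (H3K9ac) in every library of a chromatin immunoprecipitation experiment on embryonic cortex. Overlapping peaks of the 8 H3K9ac lists were merged into 104737 regions, and the 12400 with a peak in all 8 lists (11.8%) are the members, selected on a peak call in every library, without regard to treatment. A peak call is itself a lower limit on the signal, set for each library on its own. What was compared at them is the strength of the mark, not its presence. For each member the highest pileup, the number of overlapping fragments at the tallest base of a peak, was ranked within its library on a scale from 0 to 100, and the ranks of 4 libraries treated with TSA were compared with those of 4 treated with Vehicle. The ranks are relative, so that a gain or loss of H3K9ac shared by all members leaves them as they are.

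All libraries came from whole cortex at embryonic day E15.5 of mice with the genotype BAF155 cKO, a conditional knockout of the BAF (SWI/SNF) subunit encoded by Smarcc1. Both groups carried the knockout. One group had received Vehicle and the other TSA (trichostatin A), which inhibits histone deacetylases, and no group with the intact gene enters the comparison. The series asks, by its title, about H3 acetylation, basal progenitors and Trnp1. The labels do not name the Cre driver, the dose, or whether the replicates were separate embryos, so the p-values measure the spread between these libraries, part of which may be technical. In tissue of many cell types, fewer cells of a type and less acetylation per cell cannot be told apart.

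H3K9ac is laid down by acetyltransferases on nucleosomes around the starts of active and poised genes and is removed by histone deacetylases. BAF complexes use ATP to slide and evict nucleosomes and are needed for the sequence of progenitor states in the developing cortex. In that tissue apical progenitors express Pax6 and Sox genes, and basal progenitors express Eomes. Both give rise to glutamatergic neurons under proneural factors such as Neurog2, and the young neurons express Neurod6. GABAergic interneurons are born outside the cortex, in the ganglionic eminences, under Dlx genes, and migrate in.

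The 250 bases before the start are shown for 5 genes whose called regions are described below: 3 that fell, 2 that rose. They are from RefSeq (GRCm38.p6, the assembly of mm10), read 5′ to 3′ on the strand of the gene, with matches to 11 short motifs on either strand in capitals. Dlx6os1, an antisense RNA of the Dlx5 and Dlx6 locus, chr6:6861684-6861933 on the minus strand, is poor in G and C (34.0%) and holds 1 TAATTA, the core of homeodomain sites, 174 bases before the start:
Dlx6os1: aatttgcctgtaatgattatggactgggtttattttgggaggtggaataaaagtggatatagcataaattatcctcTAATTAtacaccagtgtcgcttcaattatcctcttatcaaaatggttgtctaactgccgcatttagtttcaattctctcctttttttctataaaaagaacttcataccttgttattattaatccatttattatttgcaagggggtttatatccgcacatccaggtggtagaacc
Gad1, which makes GABA from glutamate, chr2:70561879-70562128 on the plus strand, holds ACAAAG (a Sox core) on both strands and 1 GGGCGG (a GC box) on the opposite strand:
Gad1: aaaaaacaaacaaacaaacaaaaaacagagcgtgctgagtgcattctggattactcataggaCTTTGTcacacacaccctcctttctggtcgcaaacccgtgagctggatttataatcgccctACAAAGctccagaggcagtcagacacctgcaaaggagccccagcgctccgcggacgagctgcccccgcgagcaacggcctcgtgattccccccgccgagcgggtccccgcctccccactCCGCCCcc
Pax6, a regulator of apical progenitors, chr2:105668646-105668895 on the plus strand, holds 1 TGACGTCA (a cAMP response element), a palindrome, 76 bases before the start:
Pax6: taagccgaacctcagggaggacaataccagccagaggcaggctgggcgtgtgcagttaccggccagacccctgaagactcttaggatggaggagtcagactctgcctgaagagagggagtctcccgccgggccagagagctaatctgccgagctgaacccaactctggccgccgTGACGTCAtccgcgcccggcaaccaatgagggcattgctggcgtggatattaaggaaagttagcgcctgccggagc
Neurod6, a transcription factor of young glutamatergic neurons, chr6:55681264-55681513 on the minus strand, holds none of the 11 motifs:
Neurod6: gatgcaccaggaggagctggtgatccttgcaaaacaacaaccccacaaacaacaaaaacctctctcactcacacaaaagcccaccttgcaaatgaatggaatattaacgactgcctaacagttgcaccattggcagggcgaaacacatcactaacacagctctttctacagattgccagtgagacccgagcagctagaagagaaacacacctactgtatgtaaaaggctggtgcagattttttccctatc
Wdr73, a WD repeat protein gene, chr7:80901270-80901519 on the minus strand, holds 1 GGGCGG, on the opposite strand:
Wdr73: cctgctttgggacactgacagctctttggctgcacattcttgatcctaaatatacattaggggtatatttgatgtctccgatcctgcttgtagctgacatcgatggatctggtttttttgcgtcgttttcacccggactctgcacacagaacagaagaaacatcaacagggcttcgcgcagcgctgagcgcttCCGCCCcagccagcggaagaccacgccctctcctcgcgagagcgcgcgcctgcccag

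Libraries held 11824246 to 24075842 tags in Vehicle and 15365856 to 19920755 in TSA. Vehicle 4 was the most deeply sequenced and had the fewest peaks, 22668, and TSA 3 had 32248, while the other 6 libraries had 41331 to 61217. A further 3757 regions had a peak in 7 of the 8 libraries and stayed out, 2371 of them for want of a peak in Vehicle 4 and 819 in TSA 3. The median highest pileup of the members and of those just outside was 16 and 11 in Vehicle 1, and 27.57 and 18.06 in TSA 4. Ranks of the members correlated across regions with Spearman's rho of 0.623 to 0.724 within Vehicle, 0.604 to 0.699 within TSA and 0.572 to 0.720 between the groups. The names in the file headers carry a lane number, which is 1 for Vehicle 1, TSA 1 and TSA 2, 2 for Vehicle 2, Vehicle 3 and TSA 3, and 3 for Vehicle 4 and TSA 4. Whether equal numbers mean the same sequencing run is not stated. The correlations are descriptions over 12400 regions that share a genome, an input and a peak caller.

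Of the 12400 regions, 20 changed rank between the groups at an adjusted p under 0.05 by limma with Benjamini-Hochberg adjustment, which is 0.161% of those tested. In TSA 13 were lower (0.105%) and 7 higher (0.0565%). The 13 that fell lay in 8 loci, and those described below held genes of GABAergic interneurons (Dlx1, Dlx2, Dlx5, Dlx6, Dlx6os1, Gad1, Slc32a1 and Sp9) and of progenitors (Pax6 and Sox1). The 7 that rose lay in 5 loci, at Nrn1, Neurod6, Wdr73, Tmem181a and its neighbour Dynlt1a, and between genes near Dynlt1b. At all 20 the 4 TSA libraries lay on one side of the 4 Vehicle libraries, as they did at 630 of all regions (5.08%). The smallest called change was 45.4 points of rank and the largest 77.6, against a median spread between replicates of 15.6 points (SD), and no smaller change was called. All 13 regions that fell were among the widest 25% of the members, as were 4 of the 7 that rose. At 17 of the 20 called regions the tallest bases of the libraries lay more than 500 bases apart, while at 8381 of the 12400 members they lay within 500. At such regions the ranks can compare different places within the same region. The plot of rank change against mean rank shows both sets at the edges of the cloud.

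**Figure D1:**
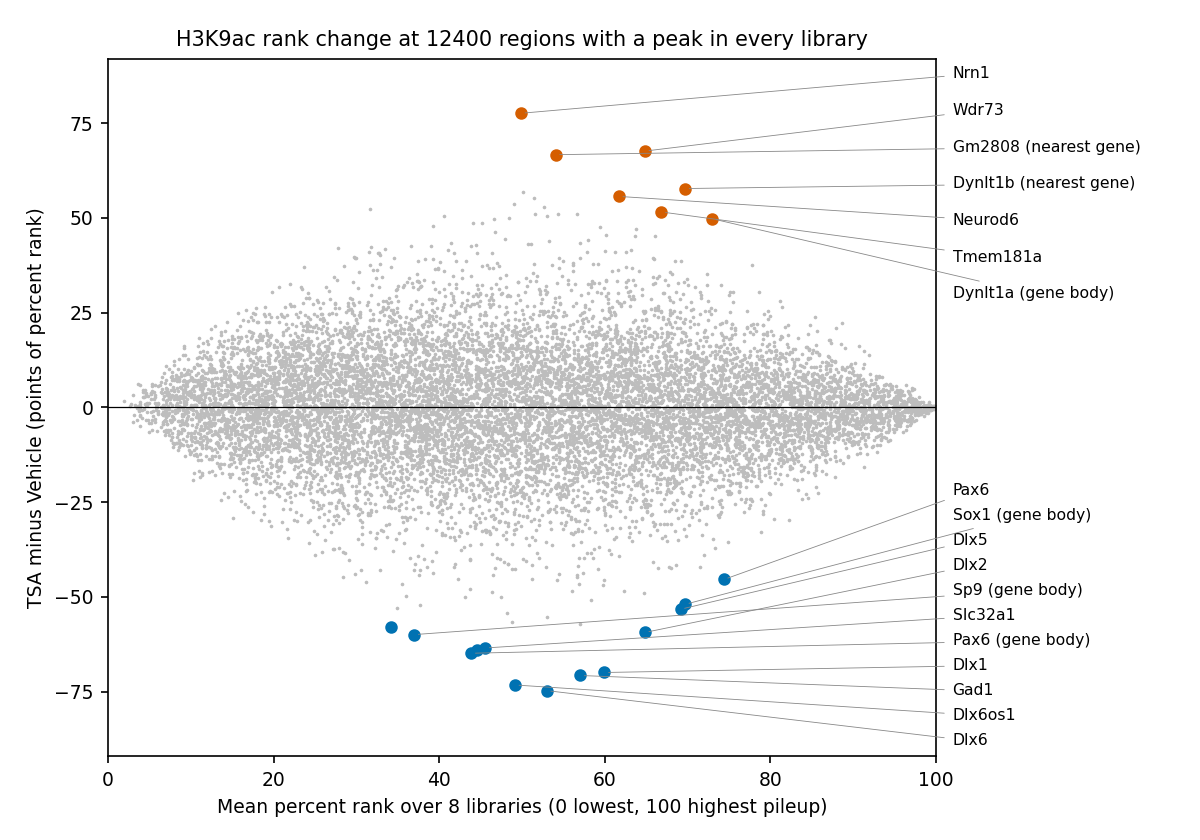
Change in percent rank (TSA mean minus Vehicle mean, vertical axis, points) against the mean percent rank over the 8 libraries (horizontal axis) for the 12400 shared regions in grey. The 20 called regions are coloured, 18 of them labelled with their gene, 7 above 0 in orange and 13 below 0 in blue, with changes of 45.4 to 77.6 points.

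Dlx genes encode homeodomain factors that specify GABAergic interneurons, and sit in pairs in the genome. The region at one end of Dlx6 (chr6:6863210-6867609, mm10) ranked 93.4, 91.4, 82.5 and 94.1 in the 4 Vehicle libraries and 33.6, 6.85, 4.62 and 17.3 in the 4 TSA libraries. The lowest Vehicle library stood far above the highest TSA library, and the rank fell by 74.7 points (SE 13.9; limma, adjusted p = 0.00252). As pileups, the authors' own values, these were 27, 30, 28 and 22.8 fragments in Vehicle and 16, 11, 10 and 19.96 in TSA, with Vehicle 4 and TSA 4 scaled down to the depth of the input. At Dlx6os1 (chr6:6858497-6861705) the Vehicle ranks were 86.9, 81.4, 82.5 and 92.4 and the TSA ranks 14.9, 6.85, 23.7 and 4.64, again without overlap. Its rank fell by 73.3 points (SE 13.98; limma, adjusted p = 0.00293), and its region overlaps only the last bases of the sequence printed above, next to the start. Dlx5 (chr6:6878009-6882261) ranked 93.4, 96.1, 98.2 and 95.5 in Vehicle and 40.5, 51.9, 56.8 and 20.8 in TSA. In 3 of the 4 TSA libraries it stayed near the middle of the scale, and it fell by 53.3 points (SE 11.6; limma, adjusted p = 0.0162). The RefSeq table gives no start for Dlx5, Dlx6 and Nrn1, so the end of the gene that their regions touch is not known here to be the start.

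The second Dlx pair showed the same direction. Dlx1 (chr2:71524705-71533672) ranked 93.4, 96.8, 94.1 and 95.5 in Vehicle and 14.9, 6.85, 64 and 14.2 in TSA, and TSA 3 stood well above the other TSA libraries. The rank of Dlx1 fell by 69.96 points (SE 13.6; limma, adjusted p = 0.00319). Dlx2 (chr2:71538351-71546856) ranked 98.2, 97.4, 85.4 and 97.2 in Vehicle and 47.6, 51.9, 23.7 and 17.3 in TSA, and fell by 59.4 points (SE 12.6; limma, adjusted p = 0.0125). Both are wide regions, of 8968 and 8506 bases. Dlx6, Dlx6os1 and Dlx1 were called whichever single library was left out. Dlx2 was not called without Vehicle 1, Vehicle 2 or Vehicle 4 (highest adjusted p = 0.102), nor Dlx5 without any 1 of the 4 Vehicle libraries (highest adjusted p = 0.109). With lane as a covariate the adjusted p was 0.0696 for Dlx1 and 0.0805 for Dlx5, in place of the values above.

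Gad1 and Slc32a1 make and load the transmitter of these cells. Gad1 (chr2:70561244-70565930, around the start printed above) ranked 96.5, 95.2, 82.5 and 95.5 in Vehicle and 14.9, 11.3, 32.1 and 28.4 in TSA. Every Vehicle library was in the top of the scale and every TSA library in its lower part, and the rank fell by 70.8 points (SE 13.6; limma, adjusted p = 0.00293), which held without any single library and with lane. The pileups of Gad1 were 30, 33, 28 and 23.6 in Vehicle and 13, 12, 14 and 22.8 in TSA. Slc32a1, the vesicular GABA transporter, has 2 shared regions at its start. The one 275 bases away (chr2:158611033-158613795) ranked 75.8, 89.4, 66.9 and 77.2 in Vehicle and 20.5, 29.98, 1.56 and 3.23 in TSA and fell by 63.5 points (SE 14.1; limma, adjusted p = 0.0196). The one on the start differed by -43.9 points and was not called. The call at Slc32a1 was lost without any 1 of Vehicle 1, Vehicle 2, Vehicle 4, TSA 1, TSA 3 or TSA 4 (highest adjusted p = 0.109) and with lane (0.0696).

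Sp9 encodes a transcription factor of interneuron differentiation. Its called region, in the gene body (chr2:73274000-73278174), ranked 75.8, 81.4, 56.6 and 54.02 in Vehicle and 10.1, 3.62, 9.61 and 4.64 in TSA. The TSA libraries were close together near the bottom of the scale, and the rank fell by 59.96 points (SE 13.6; limma, adjusted p = 0.0252). Sp9 was not called without Vehicle 1, Vehicle 2 or any 1 of the TSA libraries (highest adjusted p = 0.116), nor with lane as a covariate (limma, adjusted p = 0.0805) or when fold enrichment was ranked (0.0879).

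Among 26 genes listed as interneuron and ganglionic eminence markers, 14 had a shared region at the start. In this and the other lists, either end counts as the start where the strand is not given, as at Dlx5 and Dlx6. Of the 14 regions, 7 were called lower and none higher, against 0.105% and 0.0565% of all regions. Dlx5, Dlx6 and Dlx6os1 share a locus, as do Dlx1 and Dlx2, so the called members are not all separate observations. The list was chosen with earlier results of these data known. At 10 of the 14 all TSA libraries lay below all Vehicle libraries (2.58% of all regions), and the median change was -48.6 points against 0.03 over all regions. None of the 14 was above 0. The members not called ranged from -2.82 points at Cxcr4, a chemokine receptor, to -43.9 at Slc32a1. The list's median rank was 82.5 to 86.4 in the 4 Vehicle libraries and 17.2 to 30.3 in the 4 TSA libraries. Of 15 striatal markers 3 had a shared region, with changes of -0.84 to 12.4 points, and none was called. Whether the number of interneurons or of ganglionic eminence cells in the tissue differed between the groups was not tested. The plot of ranks by library shows how far apart the groups stood at these regions.

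**Figure D2:**
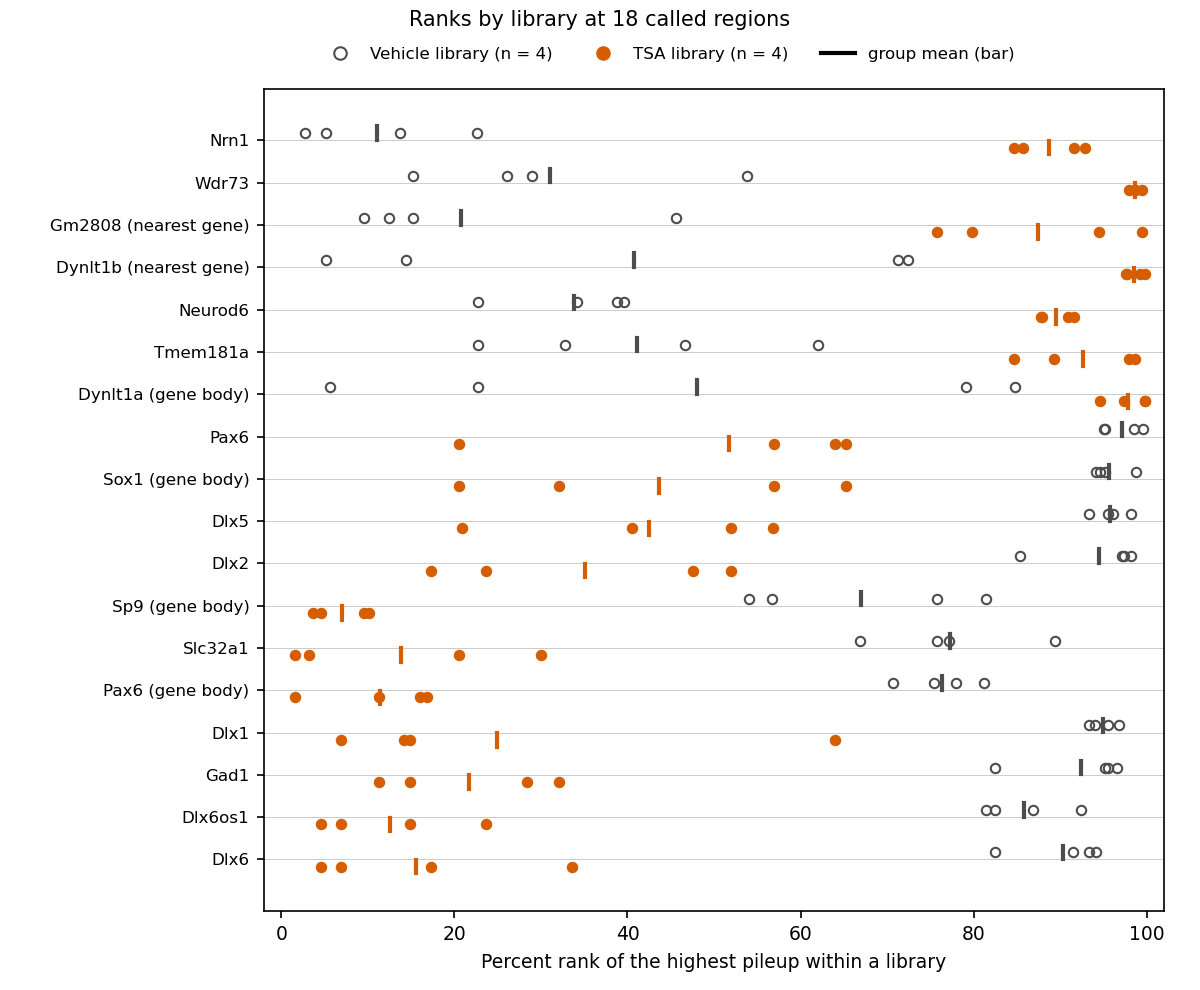
Percent rank of the highest pileup (horizontal axis) in each of the 4 Vehicle libraries (open grey circles) and 4 TSA libraries (orange circles) at 18 of the 20 called regions, with short bars at the group means. No region shown has overlapping groups. Among the 11 lower regions shown the TSA libraries spread most widely at the Pax6 start, Sox1, Dlx1, Dlx2 and Dlx5. In the regions near Dynlt1a and Dynlt1b the Vehicle libraries form 2 pairs.

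Pax6 and Sox1, transcription factors of neural progenitors, also fell. The region over the Pax6 start (chr2:105666441-105678286, 11846 bases wide) ranked 98.6, 95.2, 95.1 and 99.5 in Vehicle, among the strongest of all members, and 20.5, 65.2, 64 and 56.9 in TSA. TSA 1 was the lowest, and the rank fell by 45.4 points (SE 10.4; limma, adjusted p = 0.0258). The adjacent region in the gene body (chr2:105678379-105680568) ranked 70.7, 77.96, 75.4 and 81.2 in Vehicle and 1.53, 16.9, 16.1 and 11.3 in TSA, and fell by 64.9 points (SE 13.9; limma, adjusted p = 0.0142). The difference between the falls of the 2 Pax6 regions was not tested. The Sox1 gene body region (chr8:12397257-12402561) ranked 94.6, 95.2, 98.7 and 94.1 in Vehicle and 20.5, 65.2, 32.1 and 56.9 in TSA and fell by 51.98 points (SE 11.6; limma, adjusted p = 0.0211). Pax6 is also expressed in some cells of the ganglionic eminences, and Sox1 in their progenitors, so neither gene marks the cortex alone.

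The Pax6 start region was not called without any 1 of the 4 Vehicle libraries (highest adjusted p = 0.212), the Pax6 gene body region without Vehicle 2, TSA 1 or TSA 4 (highest 0.0853), and the Sox1 region without any 1 of the Vehicle libraries or without TSA 1 (highest 0.139). With lane the limma adjusted p values were 0.159, 0.0777 and 0.0805. Ranked by fold enrichment, the Pax6 start was not called either (0.0696). Other regions of progenitor genes were lower in TSA without a call. The Sox1 start differed by -48.9 points (adjusted p = 0.0829 by limma). Tead2, a transcription factor of the Hippo pathway, ranked 80.02, 87.1, 98.2 and 90.4 in Vehicle and 33.6, 44.7, 40.4 and 67.996 in TSA, without overlap (adjusted p = 0.148 by limma). Notch1, the receptor that keeps progenitors undifferentiated, ranked 95.6, 77.96, 79.1 and 72.4 in Vehicle and 54.6, 37.3, 23.7 and 53.03 in TSA (adjusted p = 0.268 by limma). Sox2 ranked 98.8, 98.7, 94.1 and 96.5 in Vehicle and 47.6, 65.2, 95.9 and 60.7 in TSA, with TSA 3 inside the Vehicle range, and was called when TSA 3 was left out (change -39.2 points, adjusted p = 0.0221 by limma), though not with all libraries (adjusted p = 0.103).

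Over 30 apical progenitor genes, 23 had a shared region at the start, of which 1 was called lower (Pax6) and none higher, beside 0.105% and 0.0565% of all regions. The median change was -13.5 points and 5 of the 23 were above 0, where 50.2% of all regions were. Cell division genes had lower medians without any call: -20.4 points over 17 regions of G2/M and mitosis genes, of which 2 were above 0, and -10.3 over 20 regions of G1/S and DNA replication genes, of which 3 were above 0. At 4 of the 17 G2/M regions all TSA libraries lay below all Vehicle libraries, as at 2.58% of all regions: Aurkb, Mad2l1, Tpx2 and Ccnb1. Aurkb, a mitotic kinase, ranked 83.6, 53.8, 28.9 and 46.7 in Vehicle and 6.25, 23.1, 23.7 and 8.79 in TSA (adjusted p = 0.323 by limma). The genes with the smallest p in the list, and Mki67, overlapped between the groups. Top2a, the topoisomerase of dividing cells, ranked 53.4, 77.96, 56.6 and 15.2 in Vehicle and 1.53, 3.62, 1.56 and 17.3 in TSA. Vehicle 4 lay inside the TSA range, so the groups overlapped (adjusted p = 0.148 by limma). Cdk1, the mitotic kinase, ranked 53.4, 59.5, 3.996 and 60.7 and 10.1, 1.54, 1.56 and 8.79, where Vehicle 3 was as low as TSA. Mki67, a marker of proliferation, ranked 80.02, 34.7, 23.8 and 38.8 and 10.1, 11.3, 56.8 and 17.3, with wide overlap (adjusted p = 0.741 by limma).

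The largest rise was at Nrn1, which encodes neuritin, a membrane protein of growing neurites. Its region (chr13:36730914-36736843, at an end of the gene) ranked 2.72, 5.14, 13.8 and 22.7 in Vehicle and 85.7, 91.6, 84.6 and 92.9 in TSA, the bottom and the top of the scale with nothing between. The pileups were 8, 11, 14 and 11.8 fragments in Vehicle and 25, 27, 22 and 43.7 in TSA. The rank of Nrn1 rose by 77.6 points (SE 13.96; limma, adjusted p = 0.00252), and it was called whichever single library was left out and with lane. Neurod6 (chr6:55675982-55683513, 7532 bases wide) ranked 39.6, 22.8, 34.2 and 38.8 in Vehicle and 90.9, 91.6, 87.9 and 87.8 in TSA, with little spread in either group. It rose by 55.7 points (SE 12.9; limma, adjusted p = 0.0291). The call was lost without any 1 of Vehicle 1, Vehicle 2 or the 4 TSA libraries (highest adjusted p = 0.154), with lane (0.121) and when fold enrichment was ranked (0.110). Wdr73 (chr7:80900507-80902378, around the start printed above) ranked 26.1, 53.8, 28.9 and 15.2 in Vehicle and 97.95, 99.4, 98.6 and 98.6 in TSA, and pileups went from 13, 20, 17 and 11.01 fragments to 33, 39, 31 and 55.1. All 4 TSA libraries were within the highest few percent of members, and the rise of 67.6 points (SE 12.5; limma, adjusted p = 0.00252) held without any single library and with lane.

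The other 4 regions that rose lay close together on chromosome 17, in a stretch that holds Tmem181a and several near-identical Dynlt1 genes, copies of a dynein light chain. Reads from such copies can be placed on the wrong one, so these positions may be uncertain. Whether that occurred here was not tested. The start of Tmem181a, a membrane protein gene (chr17:6256453-6257898), ranked 32.8, 22.8, 62.02 and 46.7 in Vehicle and 97.95, 98.7, 84.6 and 89.3 in TSA and rose by 51.6 points (SE 12.2; limma, adjusted p = 0.0348). The Dynlt1a gene body (chr17:6314952-6316284) ranked 5.62, 22.8, 79.1 and 84.8 in Vehicle and 97.4, 99.8, 99.8 and 94.6 in TSA. Here Vehicle 1 and Vehicle 2 were low, while Vehicle 3 and Vehicle 4 approached the TSA libraries. A region between genes, 35414 bases from Dynlt1b (chr17:6475914-6477669), showed the same split, with 14.4, 5.14, 71.2 and 72.4 in Vehicle and 99.2, 99.8, 97.7 and 97.6 in TSA. The last one, 45094 bases from the predicted gene Gm2808 (chr17:6489591-6490920), ranked 9.57, 12.5, 45.6 and 15.2 in Vehicle and 94.5, 99.5, 75.8 and 79.8 in TSA, with Vehicle 3 above the other Vehicle libraries. The rises were 49.8, 57.8 and 66.7 points (limma, adjusted p = 0.0333, 0.0125 and 0.0124).

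The rises at Tmem181a and Dynlt1a were not called without any 1 of Vehicle 1, Vehicle 2 or the TSA libraries (highest adjusted p = 0.224 and 0.213), that near Dynlt1b without any 1 of the TSA libraries (highest 0.104), and that near Gm2808 without Vehicle 1, TSA 1 or TSA 2 (highest 0.0916). With lane none of the 4 was called by limma (adjusted p 0.146, 0.0946, 0.0789 and 0.0696). Ranked by fold enrichment, those at Tmem181a, Dynlt1a and near Gm2808 were not called (0.174, 0.0520 and 0.0635). Of the 7 regions called higher, 3 lay on other chromosomes.

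Regions with the smallest p among those not called included several at genes of neurons and of other functions. Slc17a6, the vesicular glutamate transporter VGLUT2, ranked 2.72, 5.14, 9.75 and 4.20 in Vehicle and 54.6, 58.9, 56.8 and 60.7 in TSA (adjusted p = 0.0591 by limma). Its Vehicle libraries were among the weakest members and its TSA libraries near the middle. Neurog2, the proneural factor of cortical progenitors (chr3:127631843-127635250), ranked 19.9, 47.6, 18.6 and 8.85 in Vehicle and 67.4, 86.6, 87.9 and 74.4 in TSA (adjusted p = 0.0795 by limma). A region in the body of Zbtb18, a repressor needed for neuron differentiation (chr1:177448772-177452566), ranked 5.62, 28.6, 51.2 and 1.37 and 67.4, 79.9, 80.7 and 86.2 (adjusted p = 0.0758 by limma). Tnik, a kinase of the synapse, ranked 70.7, 22.8, 75.4 and 66.9 and 94.5, 95.7, 98.2 and 97.9, with Vehicle 2 far below the rest of its group (adjusted p = 0.0761 by limma). Rbm24, an RNA-binding protein, Cacna2d1, a calcium channel subunit, and Cistr, a noncoding RNA, differed by 52.9, 47.2 and 45.1 points (limma, adjusted p = 0.102, 0.115 and 0.132). With Vehicle 3 left out, Tnik and Zbtb18 were called (43.1 and 66.6 points; limma, adjusted p = 0.0304 for both). In the other direction, Spg7, a mitochondrial protease, ranked 89.5, 74.01, 71.2 and 88.004 in Vehicle and 33.6, 29.98, 9.61 and 28.4 in TSA (adjusted p = 0.0758 by limma). On a scale of normal scores in place of percent ranks, limma called Slc17a6, Neurog2, Zbtb18, Tnik and Spg7, and likewise Tbr1, Neurod2, the Sox1 start and Top2a.

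Slc17a6 and Neurog2 belong to the list of 23 basal progenitor genes, whose other members mostly had lower ranks in TSA. Of its 14 regions 5 were above 0, the median was -7.75 points and none was called. At 2 of the 14 TSA stood above Vehicle without overlap and at 2 below. The latter were Dll3, a Notch ligand, at -33.2 points, and Dll1, another, at -10.2 (limma, adjusted p = 0.464 and 0.675).

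Medians of the neuronal lists were above 0, and 1 region among their members was called higher, as were 0.0565% of all regions. Of 24 pan-neuronal genes 21 had a shared region at the start, and Neurod6 was the 1 called. The list median was 1.81 points and 11 of the 21 were above 0, near the share of all regions (50.2%). Neurod2, the closest relative of Neurod6, ranked 59.5, 77.96, 89.5 and 66.9 in Vehicle and 98.4, 98.3, 92.8 and 99.4 in TSA, without overlap but without a call (adjusted p = 0.135 by limma). Of 30 synaptic transmission genes 22 had a region, the median was 11.4 points, 18 were above 0, and 4 had all TSA libraries above all Vehicle libraries, where 2.5% of all regions did. Nlgn2, an adhesion protein of inhibitory synapses, ranked 75.8, 74.01, 79.1 and 66.9 and 94.5, 96.6, 98.6 and 92.9 and was not called (adjusted p = 0.207 by limma). The upper-layer list had a median of 6.38 over 15 regions and 3 such separations, among them Bhlhe22, a transcription factor of layer identity, at 46.7, 53.8, 45.6 and 72.4 in Vehicle and 73.02, 95.7, 98.2 and 92.9 in TSA (adjusted p = 0.223 by limma). The deep-layer list had a median of 4.95 over 12 regions.

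Lists of chromatin genes held no called region. The 28 BAF complex genes with a region had a median of 2.93 points and ranged from -28.0 at Arid2 to 34.4 at Phf10. The 19 deacetylase and corepressor genes had a median of 1.94, and the 13 acetyltransferases and readers -4.63. Among 19 histone genes the median was -7.13 and 2 were above 0. The linker histone gene H1f5 ranked 93.4, 89.4, 89.5 and 84.8 in Vehicle and 33.6, 51.9, 56.8 and 48.9 in TSA, without overlap (adjusted p = 0.145 by limma), and H1f2 differed by -39.1 points. Of 20 genes listed for their response to deacetylase inhibitors 12 had a region, with a median of 3.43 points and no call. The 40 oxidative phosphorylation and 39 ribosomal protein regions had medians of 2.46 and -1.02. None of 20 microglia markers had a shared region, and the endothelial, meninges, oligodendrocyte lineage and Cajal-Retzius lists had 1 each, with no call. Erythroid markers had 2, which differed by -5.47 and -0.581 points. The plot of changes by list shows all lists with at least 10 regions.

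**Figure D3:**
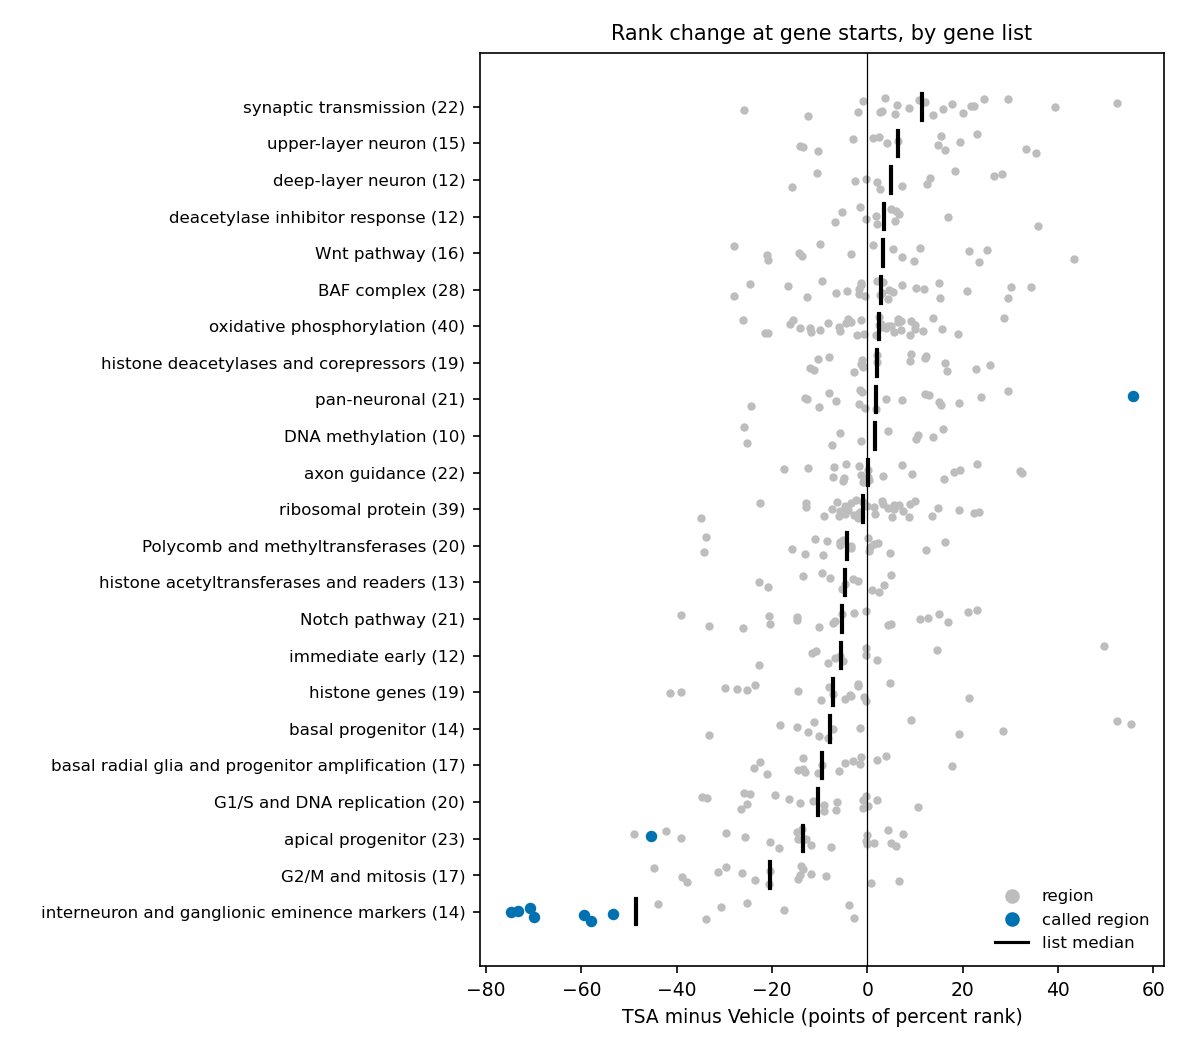
Rank change (TSA minus Vehicle, horizontal axis, points) at the shared region nearest to the start of each gene, for the gene lists with at least 10 such regions (number in brackets), ordered by median. Where the strand of a gene is not given, either end counts as the start. Grey circles are regions, blue circles the called ones and black bars the list medians, which run from -48.6 for interneuron and ganglionic eminence markers to 11.4 for synaptic transmission.

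Trnp1, which the title names, and other genes of cortical development were looked up whatever their change. Trnp1 had no shared region at its start: its best region had a peak in 5 libraries, 2 Vehicle and 3 TSA. Eomes and Neurod1 each missed 1 Vehicle library and had a peak in 7. Neurog1 had a peak in 3 libraries, all TSA, and Neurod4 in none, so none of these 5 has a rank here. Vehicle 4 had the fewest peaks of all libraries (22668) and TSA 4 the most (61217). Differences between the groups in the presence of peaks were not tested. Smarcc1, the gene whose product is deleted, ranked 94.6, 41.1, 56.6 and 22.7 in Vehicle and 40.5, 75.6, 48.8 and 44.9 in TSA, a difference of -1.31 points, which does not check the knockout, since both groups carry it. Its homologue Smarcc2 ranked 80.02, 69.5, 91.3 and 66.9 and 47.6, 51.9, 32.1 and 77.2, with overlap. Tbr1, a factor of deep-layer neurons, ranked 46.7, 69.5, 85.4 and 66.9 in Vehicle and 85.7, 99.1, 96.96 and 99.3 in TSA, just apart (adjusted p = 0.151 by limma). Hopx, a marker of basal radial glia, ranked 19.9, 22.8, 9.75 and 4.20 and 33.6, 37.3, 23.7 and 32.5, apart but low in both groups (adjusted p = 0.690 by limma). Most of the basal radial glia and progenitor amplification list, to which it belongs, went the other way: 3 of 17 regions were above 0, the median was -9.52 points, and none was called. Plag1, a zinc finger factor, was lower in TSA without overlap (-22.5 points). Bcl11b differed by 2.74 points, Actb by -0.261 at the very top of the scale, and Gapdh, low on it, by 15.7, none of them called.

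Other shared regions around the called loci were set beside them. Around Dlx1 and Dlx2, 8 other shared regions lay within 500 kb, with a median of -9.17 points. The lowest of them, at -53.0, lay between the 2 called regions and had an adjusted p of 0.078 by limma. Around Dlx5 and Dlx6 there were 3 others, at -45.5, -24.8 and -3.85 points, of which the first 2 adjoin the called regions. At Sox1, 10 others had a median of -16.9, and 4 had all TSA libraries below Vehicle. On chromosome 17 the 11 other regions within 500 kb of Tmem181a and Dynlt1a, the 4 called ones left aside, had a median of 13.1 points, and 10 of the 11 were above 0. Around Wdr73, by contrast, the median of 10 others was 4.99 points, around Neurod6 there were 2 others, and Nrn1 had none within that distance.

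**Figure D4:**
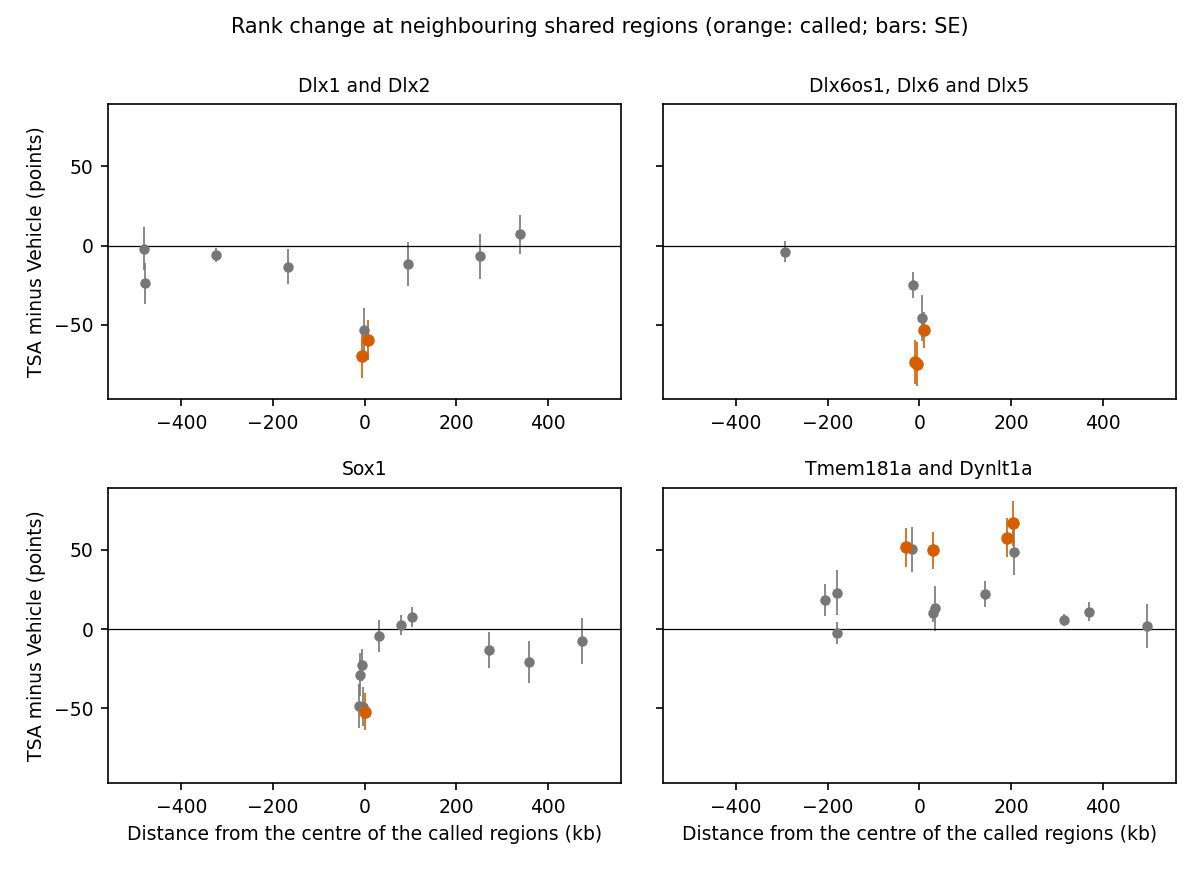
Rank change (TSA minus Vehicle, vertical axis, points, bars are the SE from limma) of shared regions against distance from the centre of the called regions (horizontal axis, kb) at 4 loci. Called regions are orange and others grey. At the Dlx loci and Sox1 the low values, down to -74.7, sit close to the centre, while on chromosome 17 high values stand at several places.

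Classes of regions were compared by their median rank in each library. Regions within 1000 bases of a gene start made up 10618 of the members (85.6%), gene bodies 1213 and stretches between genes 569. Either end counted as the start only where the strand of the gene is not given. Gene start regions had a median rank of 53.1 ± 1.31 (SD, n = 4) in the Vehicle libraries, against 52.1 ± 2.45 (SD, n = 4) under TSA, with an adjusted p of 0.657 by a two-sided exact permutation test over libraries. For 4 against 4 libraries the smallest p this test allows is 0.0286, so that after adjustment over 6 classes no single class could pass 0.05. Gene bodies had 27.0 ± 4.85 and 29.4 ± 2.19, and regions between genes 30.6 ± 5.61 and 33.9 ± 2.35 (SD, n = 4; exact permutation test, adjusted p = 0.657 for both). The 3110 narrowest regions had 35.1 ± 2.57 and 32.1 ± 1.53, and the 3100 widest 69.6 ± 1.94 and 69.9 ± 1.74 (SD, n = 4; exact permutation test, adjusted p = 0.257 and 0.657). The 143 regions on the X chromosome had 26.6 ± 2.91 and 22.1 ± 1.59 (SD, n = 4; exact permutation test, adjusted p = 0.257). The number of peaks on the Y chromosome was 21, 26, 4 and 0 in Vehicle and 13, 42, 13 and 87 in TSA, and its part in the X-linked values was not tested. Among the 310 regions where TSA stood above Vehicle without overlap 75.8% were at gene starts, and among the 320 where it stood below 88.1%, with no test of that difference.

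**Figure D5:**
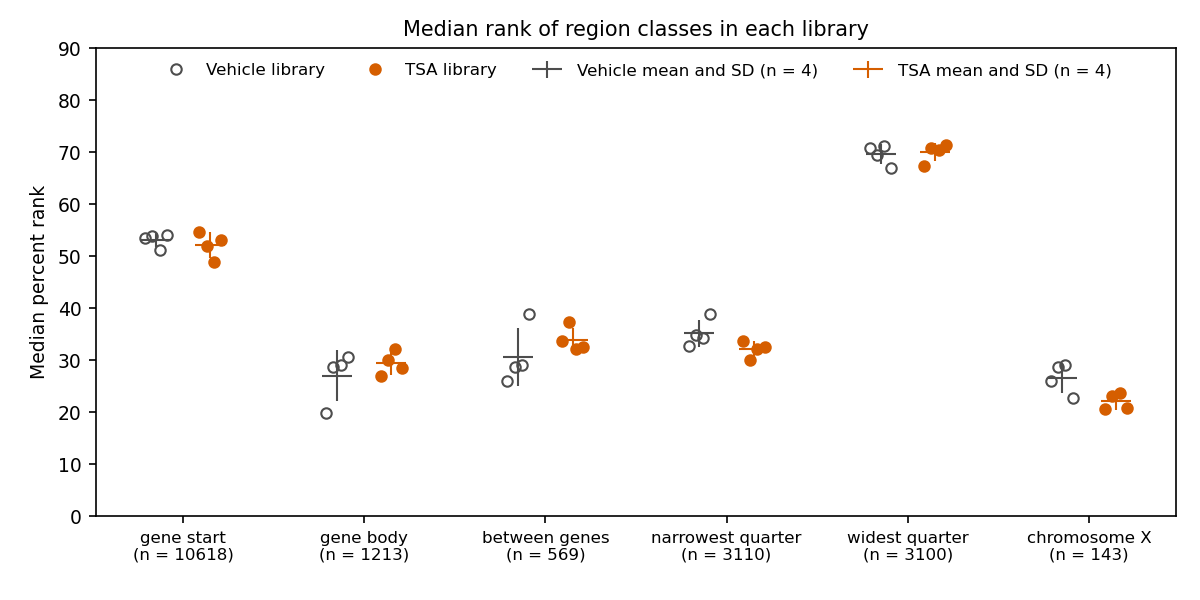
Median percent rank (vertical axis) of the regions of each class in every library, open grey circles for Vehicle and orange for TSA, with the group mean and SD (n = 4 each). The number of regions is given under each class. The libraries of the 2 groups overlap in all 6 classes.

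Sequence before the start was available for 8753 gene start regions, of which 6 were called lower and 3 higher. The motif TAATTA, its own reverse complement, was in 1.76% of the 8753 windows of 250 bases. Among the 9 called it was in Dlx6os1 alone, printed above. Among the named genes without a call it stood 2 times before Tbr1 and 1 time before Cistr. CAGCTG, an E-box read by proneural factors and also a palindrome, was in 10.9% of all windows, in 16.3% (31 of 190) of those where TSA stood above Vehicle without overlap, and in 6.97% (17 of 244) of those below. None of the 9 called windows held CAGCTG or the other E-box searched, CAGATG (8.36% of all). TGACGTCA was in 3.03% of all windows, in 0.526% of those above and in 3.69% of those below. ACAAAG was in 11.3% of all windows and GGGCGG in 66.0%. No difference in motif share between the windows above and below was tested. The other motifs searched were ATTTGCAT (an octamer read by POU factors), TGANTCA (the AP-1 core), CCGGAAG (an ETS core), the NRF1 motif and the nuclear factor I motif, and no called window held any of these. The median share of G and C was 62.4% in all windows, 62.2% where TSA stood below and 62.4% where it stood above. A match shows only that these letters are in the window.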

How the data were processed

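H3K9ac immunoprecipitates of 8 libraries (4 Vehicle, 4 TSA) entered; RNA libraries were not used here. The authors called peaks for each library separately with MACS2 2.1.0.20140616 at a q-value limit of 0.1 against 1 input of 18937878 tags, keeping 1 tag per position, per the file headers. Reads were 50 bp; the build was mm10 per the submitters' processing notes, and the aligner is not given in the sources used here. The deposited columns used were the pileup signal, the fold enrichment (a ratio to local background) and the −log10 of the q-value; all are the authors' values for each peak. The larger data set was scaled to the smaller, per the file headers, so pileups were compared only as ranks over the same regions.

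Peaks overlapping by at least 1 base were merged, and the highest pileup per region and library was given its percent rank (ties at the mean, the largest tie 8.52% of regions). Ranks were fitted with limma 3.58.1 in R 4.3.3 (trend, robust prior) over all 12400 regions with Benjamini-Hochberg adjustment, and the code was tested on simulated data. Class medians were compared with exact permutation tests (SciPy 1.17.1). Gene starts are from RefSeq (GRCm38.p6); 1865 of the 10618 regions counted at gene starts touch an end of a gene whose strand that table does not give. Named genes were the 10 largest called changes each way at gene starts with separated groups (filled up by smallest p), 4 each way elsewhere, the study's genes, and up to 4 members of each list with the smallest p. The members and lists were chosen with earlier results of these data known. Same-numbered replicates did not deviate together (correlations -0.0428 to 0.0241). That cannot tell whether they were paired in the design, which the labels do not give. The replicate number was therefore left out of the main fit and used as a block in an alternative. Some results among the called regions and named genes are not reported here.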

Additional observations from a re-analysis of the deposited data

Results flagged for a closer look

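Within groups of 4 libraries, 1 library stood apart from the other 3 by Dixon's criterion (the gap over the range) at 7 of 86 groups of values checked; chance alone flags about 1 in 20. At Gad1 the lowest Vehicle rank was 82.5, in Vehicle 3, with the others at 95.2 to 96.5. At Dlx2 it was 85.4, also in Vehicle 3, with the others at 97.2 to 98.2. At Dlx1 the highest TSA rank was 64.0, in TSA 3, with the others at 6.85 to 14.9. At the region near Gm2808 the highest Vehicle rank was 45.6, in Vehicle 3, with the others at 9.57 to 15.2. Among regions without a call, Tnik had 1 Vehicle library at 22.8 (Vehicle 2) and the others at 66.9 to 75.4, Tbr1 had 1 TSA library at 85.7 (TSA 1) and the others at 97.0 to 99.3, and Mki67 had 1 TSA library at 56.8 (TSA 3) and the others at 10.1 to 17.3.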

How the results depend on the processing

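The count of called regions moved with the processing. Over 93 named regions, 1009 alternatives gave the same outcome, called or not called, 95 lost a call, 12 gained one and 0 changed the sign of a call. Those counts cover only ranked fold enrichment, normal scores, lane, replicate block and single libraries left out. Most of the 93 regions were not called in the main fit. Of the 20 called regions, 6 kept the call whichever single library was left out. Over all alternatives that tested the same region, Tmem181a was called in 8 of 21. The main fit gave 7 higher and 13 lower. Ranking fold enrichment gave 3 higher and 11 lower, normal scores 17 higher and 24 lower, and log2 pileup 22 higher and 42 lower. With only the 8381 regions whose summits lay within 500 bases, 1 was higher and 0 lower (654 at an unadjusted p under 0.05 by limma). Only 3 of the 20 called regions were tested there: Wdr73 kept its call, and Slc32a1 and Tmem181a lost theirs. The lane number as a covariate left 2 higher and 4 lower. The fit with the replicate block gave 4 higher and 10 lower, and among those lost were Neurod6, Tmem181a, Dynlt1a, Sp9 and the Pax6 start (adjusted p 0.0520 to 0.0741 by limma). Leaving out 1 library at a time gave 2 to 9 higher and 4 to 12 lower. Dlx6os1, Gad1 and Nrn1 were called in all of the alternatives that tested the same regions. Alternatives chosen after seeing the data were leaving out both libraries with the fewest peaks (1 higher, 4 lower; Dlx6 and Wdr73 then had an adjusted p of 0.0526 by limma) and leaving out chromosome 17 (3 higher). The causes were not tested. The class medians could give no single call under any setting. A correction for GC content and motifs around summits were not run, since no genome was used here. Depth sets a limit: ranks of low pileups rest on few fragments and many ties.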
